A study of Danio rerio with 12 samples.

Results

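The comparison set entire brains of 4 female zebrafish homozygous for the psen2 S4Ter allele (Hom) against those of 4 wild-type females (WT), which are 8 of the 12 fish sequenced. Fish were taken by genotype alone, and 16021 of the 32057 genes in the count table were tested: those above 1.5 CPM (counts scaled to a common library total) in at least 4 of the 12 fish, without the 2 mitochondrial rRNA genes. The other 4 fish were heterozygous (Het, psen2S4Ter/+) and entered the fit for its estimate of the spread. Hom fish (psen2S4Ter/S4Ter) carried on both chromosomes a small deletion that creates an early stop codon in psen2, and WT fish (psen2+/+) carried it on neither.

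All fish were 6 months old, of the Tübingen strain, and belonged to a single F3 family from a pair of Het parents, raised together in 1 tank. The allele goes back to 1 F1 carrier that was outbred to a wild-type fish, so the comparison rests on 1 mutant allele in 1 family. Each library was labelled as a separate fish and was treated as 1 replicate. The tissue label is brain, while an extraction note in the labels speaks of larvae, which goes against the age given for every fish. The labels gave no sequencing batch and no time of day at which a brain was taken.

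Presenilin 2, the product of psen2, is an aspartyl protease that forms the catalytic core of the γ-secretase complex together with nicastrin, Aph1 and Pen2. The complex cuts membrane proteins within the lipid bilayer, among them Notch receptors and the amyloid precursor protein. Presenilins have also been linked to calcium handling, to the acidification of lysosomes and to contacts between the endoplasmic reticulum and mitochondria. Dominant mutations in human PSEN2 are a cause of early-onset familial Alzheimer's disease.

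Totals were 11878943 to 15953499 counts in the WT libraries and 14746801 to 16667945 in the Hom libraries, a difference that did not pass the test (exact permutation test, two-sided, p = 0.4). CPM below were scaled by TMM over the tested genes, and 3 counts in a fish correspond to 0.233 to 0.306 CPM. Fold changes are log2 (logFC, Hom minus WT), and FDR is the Benjamini-Hochberg adjusted p of edgeR's quasi-likelihood test over all 16021 genes. The standard error (SE) was derived from that test, as the size of the logFC divided by the square root of the F statistic. Symbols in capitals come from a reference name table without the letter that tells zebrafish duplicates apart. Where 2 genes shared such a symbol the chromosome is given.

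The WT libraries were not alike, and this touches every count below. Mitochondrial rRNA took 18.9%, 17.9%, 26.4% and 23.9% of all counts in WT fish 79, 86, 88 and 95, against 32.9%, 31.4%, 35.5% and 32.1% in Hom fish 78, 82, 83 and 85. No Hom fish overlapped a WT fish, and the means of 21.8 ± 4.07% and 33.0 ± 1.79% (SD, n = 4) differed by 11.2 percentage points at the smallest p that 4 against 4 fish allow (exact permutation test, two-sided, p = 0.0286, adjusted over 5 measures 0.0714). The Wilson 95% interval of each share spans less than 0.1 percentage point and covers counting error only. On the first principal component of log2 CPM, which held 36.4% of the variance, WT fish 79 and 86 lay at −32.2 and −56.7 and WT 88 and 95 at −6.3 and −18.1, while the Hom fish lay between 21.5 and 33.5. The groups did not overlap on this component either (exact permutation test, p = 0.0286, adjusted 0.0714). The share of non-rRNA counts on genes with under 500 bp of exon was 5.06%, 3.32%, 9.58% and 5.84% in WT 79, 86, 88 and 95 and 8.31%, 7.96%, 10.6% and 9.4% in Hom 78, 82, 83 and 85, a difference that did not pass the test (exact permutation test, p = 0.114, adjusted 0.19). Counts are therefore also given without WT 79 and 86 (below, the WT pair), an alternative chosen after seeing the data. With the rRNA share as a covariate 0 of 16021 genes had FDR below 0.05 in edgeR's test and 1146 of them had an unadjusted p below 0.05. Since the share does not overlap between the groups, however, it cannot be told apart from genotype in these 8 fish.

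Genes of particular brain regions also differed between fish of the same genotype. The regional lists were drawn up after values were seen. The summed CPM of 5 telencephalic genes was 126, 131, 25.7 and 21.9 in WT 79, 86, 88 and 95, and 305, 73.8, 27.4 and 161 in Hom 78, 82, 83 and 85. That of 18 Hox genes, which mark hindbrain and spinal cord, was 115, 234, 26.5 and 220 in WT and 2.82, 159, 153 and 145 in Hom. WT 88, WT 95 and Hom 83 were thus the fish lowest in telencephalic genes, WT 88 and Hom 78 those lowest in Hox genes, and neither sum separated the genotypes. After WT 79 and 86 are left out, the WT group therefore consists of the pair lowest in telencephalic genes.

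**Figure D1:**
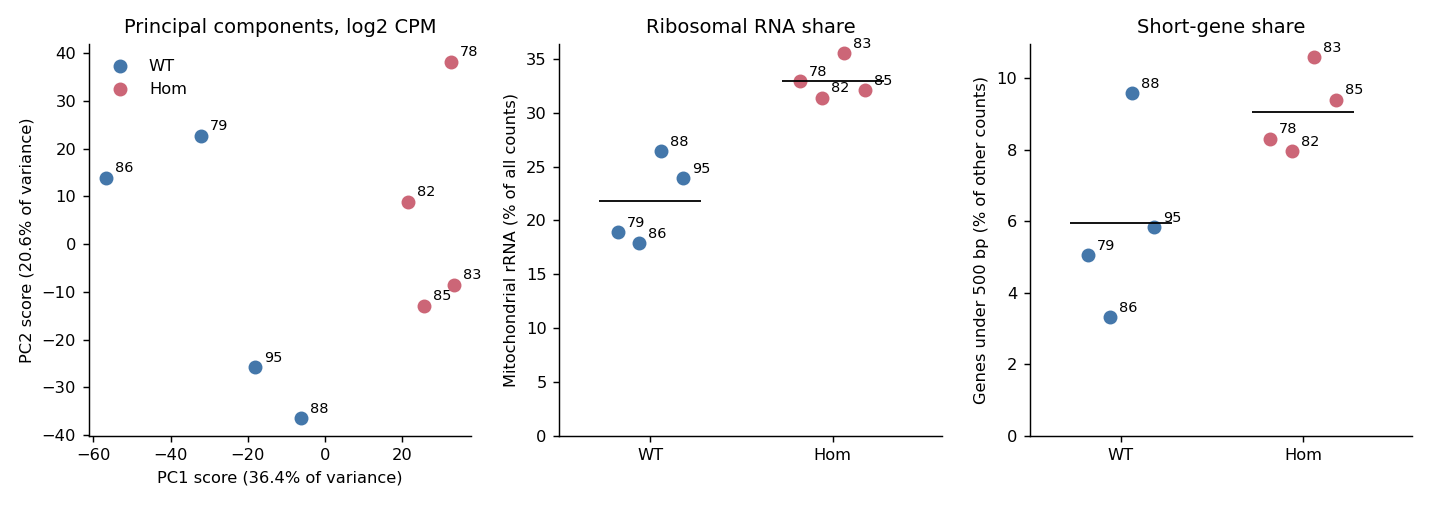
Overview of the 8 fish, with each fish a numbered point coloured by genotype and bars at the group means. The panels show the first and second principal components of log2 CPM (36.4% and 20.6% of the variance), the mitochondrial rRNA share of all counts in percent, and the percent of non-rRNA counts on genes with under 500 bp of exon. WT 79 and 86 lie farthest from the Hom fish on the first component and have the lowest rRNA shares, 18.9% and 17.9%.

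The targeted gene, psen2, was transcribed in every fish of both genotypes. It had 22.6, 17.8, 21.3 and 20.3 CPM in WT 79, 86, 88 and 95 and 21, 18.4, 20.3 and 16.5 CPM in Hom 78, 82, 83 and 85. The groups overlapped and the logFC was −0.11 (SE 0.12, FDR = 0.564), so the level of the transcript does not check the genotype labels in this case. The study checked them by counts of each allele in these libraries, and reports no WT allele in Hom and no mutant allele in WT. It also saw no evidence of decay of the mutant transcript and holds truncated Psen2 proteins to be likely. The gene (ENSDARG00000015540) lies on chromosome 1 of GRCz11 from 51048975 to 51062405 on the reverse strand, with 11 exons and 1840 bp of exon.

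A list of 14 tested genes held genes of γ-secretase and of the processing of the amyloid precursor protein, and also MFN2. The nicastrin gene was not matched by its symbol and is not in the list. At FDR below 0.05, 2 were higher in Hom, APH1B and MFN2, and 0 were lower. Over all tested genes 9.34% were higher and 11.0% lower. The list's median logFC of 0.01 lay beside a median of 0.03 over all genes, and 0 were called without the WT pair. APH1B, a scaffold subunit of γ-secretase, had 7.03, 6.44, 9.41 and 7.51 CPM in the WT fish and 12.1, 10.5, 12.8 and 11.5 CPM in the Hom fish. No Hom fish fell in the WT range (logFC 0.62, SE 0.14, FDR = 0.0103), although the FDR was 0.134 without WT 79 and 86. MFN2, a mitochondrial outer membrane fusion protein that also tethers mitochondria to the endoplasmic reticulum, rose by 0.34 (SE 0.10, FDR = 0.0283; 0.267 without the same WT pair).

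Differential expression (DE) was called at a Bonferroni-adjusted p below 0.01, or at FDR below 0.01 with a logFC beyond 1 in size. By this criterion 178 of 16021 genes (1.11%) were DE, 99 higher in Hom (0.618%) and 79 lower (0.493%). With a correction for the dependence of logFC on gene length the split was 80 higher and 122 lower. At FDR below 0.05, 3258 genes (20.3%) were called, 1496 higher and 1762 lower, and 2890 of these changed by less than 1 on the log2 scale. The CPM of the Hom and WT fish did not overlap for 3957 genes (24.7%), and these included each of the 178 DE genes.

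These counts rested heavily on WT 79 and 86, the WT fish farthest from Hom on the first component. Leaving out this pair was therefore bound to shrink the contrast, and it leaves WT 88 and 95 alone in the WT group. In that fit 149 genes (0.930%) had FDR below 0.05, 63 higher (0.393%) and 86 lower (0.537%), and 4 were DE: cbr1, cipca, BX247868.1 and si:ch211-281l24.3. The last of these had 189 CPM in WT 79, under 1 CPM in the other WT fish and 98.6 to 184 CPM in Hom, and was not called with all fish (FDR = 0.437). Of 112 genes named here that were called with all fish, 40 kept FDR below 0.05 without the pair. Of the 149, 143 were among the 3258. Of the 3258, 3257 had the same sign of logFC without the pair, which is no check of them. Both fits share the other fish, and for 2719 of the 3258 the Hom and WT fish did not overlap. With WT 88 and 95 left out instead, 4653 genes had FDR below 0.05 and 844 were DE. Counts of list members without WT 79 and 86 are to be read beside the shares of 0.393% higher and 0.537% lower. At such low shares a short list is apt to hold no call, so 0 there is not particular to the list. The DE count was also sensitive to single fish. It was 422 without WT 88 and 150 without WT 95, but 12 and 29 without WT 79 and 86, and 36, 26, 30 and 11 without Hom 78, 82, 83 and 85. At FDR below 0.05, leaving out 1 fish gave 1492 genes (without WT 79) to 4126 genes (without WT 88). Fish varied more within WT, where the median SD of log2 CPM per gene was 0.233, than within Hom, where it was 0.177.

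**Figure D2:**
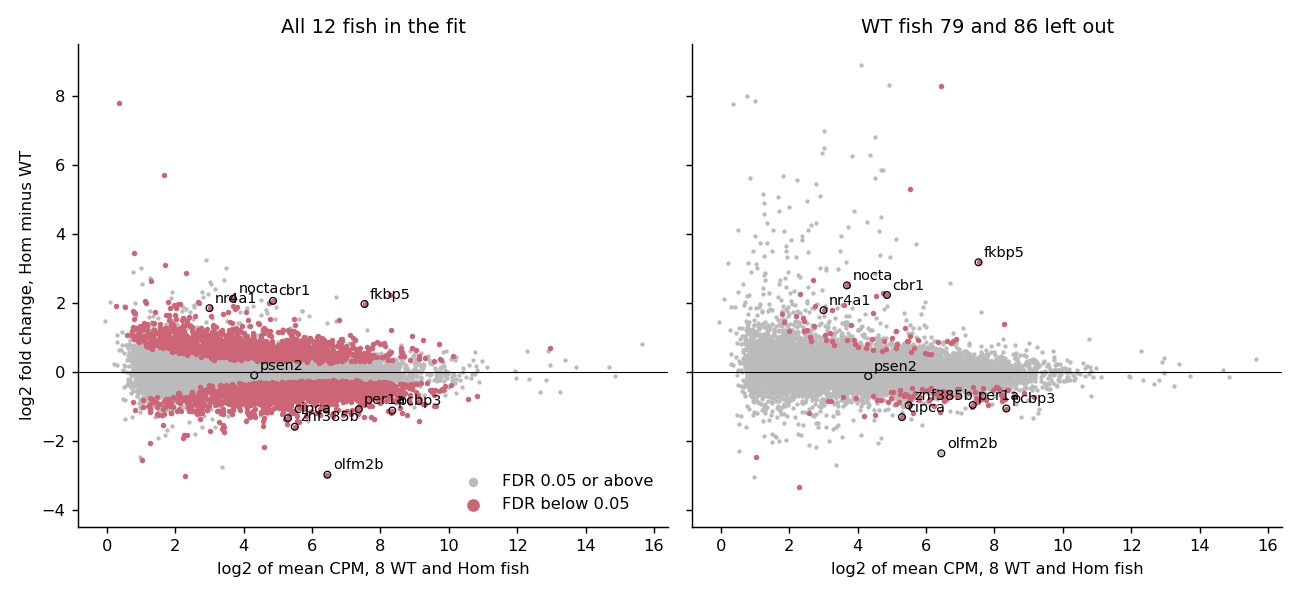
Log2 fold change of each tested gene, Hom minus WT, against its log2 mean CPM, with genes at FDR below 0.05 coloured and selected genes circled and named. One panel uses all fish (3258 coloured genes) and the other leaves out WT 79 and 86 (149 coloured genes), where cipca, per1a, pcbp3, cbr1, nocta and nr4a1 stay coloured and olfm2b does not.

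The gene with the smallest p was cipca, whose product is a negative-feedback partner of the clock protein Clock in mammals. It had 55.5, 59.2, 55.5 and 55.2 CPM in WT 79, 86, 88 and 95 and 23.3, 20.2, 19.5 and 25.5 CPM in Hom 78, 82, 83 and 85. The groups were far apart, with every WT fish more than 2-fold above every Hom fish, a logFC of −1.35 (SE 0.10, FDR = 0.000106) and a logFC of −1.32 (FDR = 0.00248) without WT 79 and 86. cbr1, a carbonyl reductase that uses NADPH, had 15.8, 9.38, 10.1 and 9.84 CPM in WT and 47.3, 44.9, 53.3 and 41.3 CPM in Hom. Its logFC was 2.05 (SE 0.20, FDR = 0.000707), and 2.22 without the WT pair. pcbp3, an RNA-binding protein of the poly(rC)-binding family, had 508, 421, 416 and 442 CPM in WT and 182, 203, 240 and 192 CPM in Hom. All 4 Hom fish were below all 4 WT fish (logFC −1.13, SE 0.12, FDR = 0.000961).

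nr4a1, an orphan nuclear receptor gene induced within minutes of stimulation, had 3.46, 3.26, 4.27 and 3.02 CPM in WT and 15.9, 9.92, 10.9 and 13.5 CPM in Hom. The logFC was 1.84 (SE 0.20, FDR = 0.000961) and stayed at 1.78 (FDR = 0.0225) without WT 79 and 86. Among genes with the largest increases, nocta, which encodes the clock-controlled enzyme nocturnin, had 6.11, 5.89, 4.62 and 2.76 CPM in WT and 23.7, 16.9, 20.7 and 22.2 CPM in Hom (logFC 2.11, SE 0.29, FDR = 0.0025). pik3r3a, a regulatory subunit of phosphoinositide 3-kinase, had 9.47, 15.9, 8.27 and 9.49 CPM in WT and 28.9, 29.1, 65 and 48.3 CPM in Hom, so that WT 86 was the highest of its group and the Hom fish split into a lower and a higher pair. Its logFC was 1.98 (SE 0.28, FDR = 0.00329).

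Other genes with large increases were low in abundance. The neutral amino acid transporter SLC38A5 went from 0.835 ± 0.171 CPM to 3.49 ± 1.32 CPM (SD, n = 4; logFC 2.05), the mitochondrial carrier ucp2 from 2.45 ± 0.667 to 10.1 ± 5.32 CPM (logFC 2.03) and the endoplasmic reticulum protein gene jagn1a from 1.37 ± 0.717 to 5.58 ± 0.542 CPM (logFC 2.01). mibp rose by 2.00 and si:dkeyp-94g1.1 by 1.96. Without the WT pair jagn1a and mibp kept FDR below 0.05 (0.0355 and 0.0227), and SLC38A5, ucp2 and si:dkeyp-94g1.1 did not (0.0843, 0.0956 and 0.107). The Hom fish differed among themselves in ucp2, with 4.77 and 6.2 CPM in Hom 78 and 82 and 14.6 and 14.7 CPM in Hom 83 and 85. Among short genes, the small nucleolar RNA gene SNORA70 (134 bp) rose by 2.86 and fkbp1ab, a peptidyl-prolyl isomerase gene of 487 bp, by 1.51. With the length correction these values were 1.96 and 1.19, and without the WT pair fkbp1ab lost its call (FDR = 0.0833) while SNORA70 kept it (0.0491).

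The largest decreases included olfm2b, a member of the olfactomedin family of secreted glycoproteins. It had 202, 217, 77.8 and 123.3 CPM in WT 79, 86, 88 and 95 and 2.82, 11.3, 42.4 and 21.5 CPM in Hom 78, 82, 83 and 85. Hom fish differed among themselves by more than 10-fold, yet each was below each WT fish (logFC −2.99, SE 0.57, FDR = 0.00684; 0.0857 without WT 79 and 86). si:dkey-22n8.3 fell by 3.04, from 8.6 ± 3.46 to 1.05 ± 0.442 CPM (SD, n = 4). Smaller decreases were found for gata4 (−1.93), ubap1la (−1.84) and snrnp35 (−1.73), the latter a protein of the minor spliceosome in mammals. Without the WT pair gata4 and snrnp35 stood at −0.94 and −0.87 and did not pass FDR below 0.05, while znf385b stood at −1.60 with all fish and −0.98 (FDR = 0.00634) without the pair.

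Abundant DE genes were mostly lower in Hom. Those highest in mean CPM among the increases were rps16, a protein of the small ribosomal subunit (57.8 ± 29 CPM in WT, 165 ± 26.9 in Hom), and cd59, a membrane-bound inhibitor of complement (192 ± 82.7 and 443 ± 89.8 CPM). Of the 20 DE genes with a mean of 100 CPM or more, 18 were lower in Hom. Among all tested genes of that abundance 23.4% were called lower and 6.52% higher at FDR below 0.05, beside 11.0% and 9.34% overall in the test. ZIC1, a zinc finger transcription factor of cerebellar granule cells, had 936, 795, 728 and 792 CPM in WT and 132, 274, 417 and 378 CPM in Hom. Hom 78 was the lowest and no Hom fish reached the WT range (logFC −1.44, SE 0.29, FDR = 0.00758; 0.0832 without WT 79 and 86). neurod1, a neuronal differentiation factor, fell by 1.21 and cacna1ab, a subunit of P/Q-type calcium channels, by 1.06.

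ZIC1 and neurod1 belong to a list of 11 genes of cerebellar granule cells that was drawn up after values were seen, so its counts are a description. Its summed CPM was 3263, 2468, 2673 and 2578 in WT 79, 86, 88 and 95 and 597, 1004, 1746 and 1494 in Hom 78, 82, 83 and 85, with no overlap. Of the 11 genes 9 were lower at FDR below 0.05 and 0 higher, beside 11.0% and 9.34% of all genes, at a median logFC of −1.21. PAX6 on chromosome 7 (logFC −1.23, FDR = 0.0687) and cbln12 (logFC −0.48, FDR = 0.56) were not called. Without WT 79 and 86 none of the 11 was called, at a median of −1.05. Hom 78, lowest in the summed CPM of this list, was also lowest in Hox genes and highest in telencephalic genes. In the 4 Het fish the sum ranged from 1160 to 1978. Among its members, gabra6b, a subunit of GABA receptors, had 78.8, 45.9, 72.2 and 70 CPM in WT and 14.9, 20.6, 45.1 and 29.5 CPM in Hom (logFC −1.28, SE 0.28, FDR = 0.00978), with WT 86 just above Hom 83, and the cadherin gene FAT2 fell by 1.27. The parts of cell number, RNA per cell and the extent of tissue taken in these values were not tested.

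**Figure D3:**
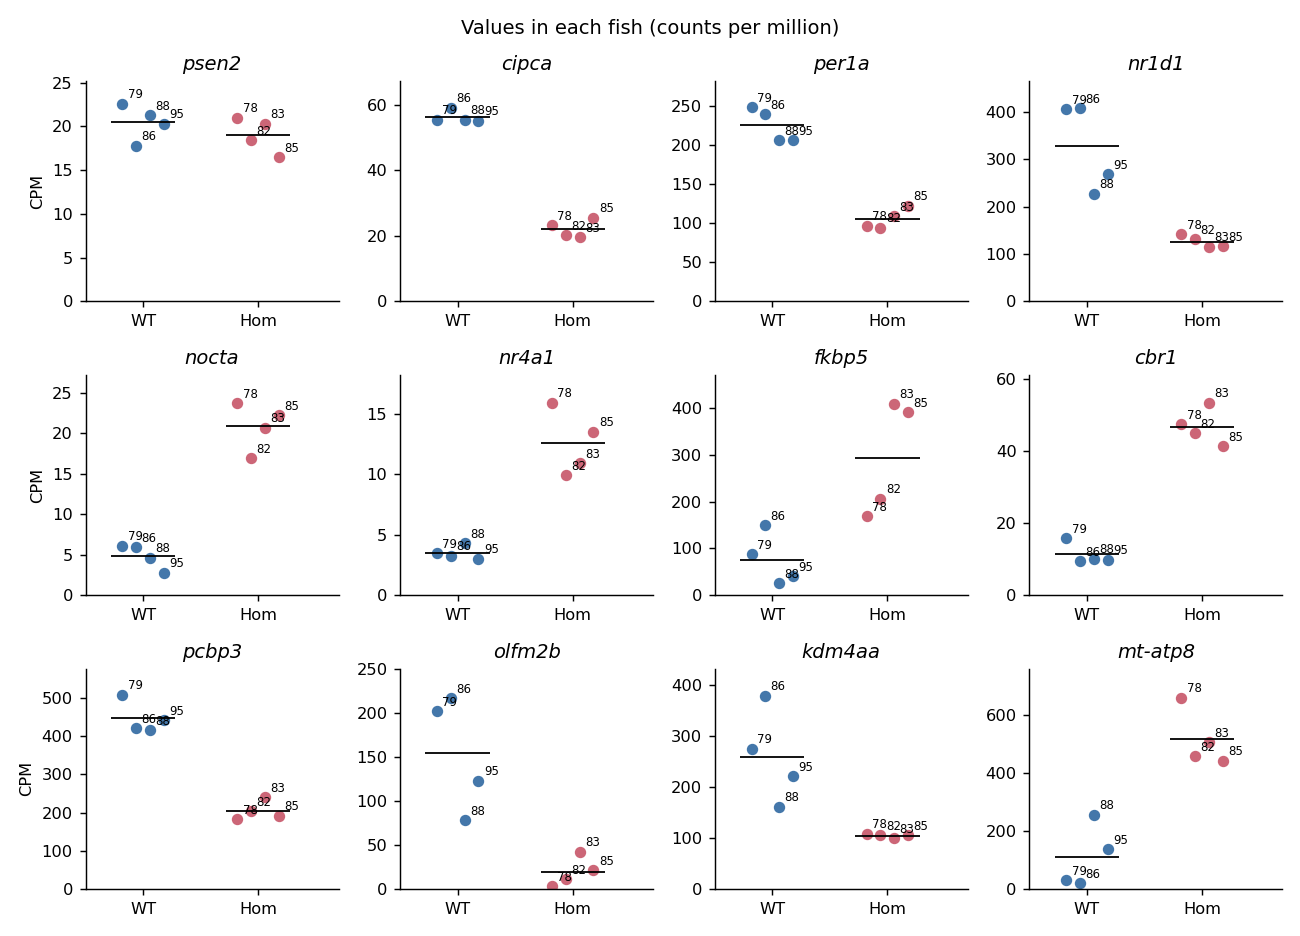
CPM in each of the 8 fish for 12 genes, with WT and Hom in separate colours, numbers naming the fish and a bar at each group mean (n = 4). For cipca, per1a, nr4a1, cbr1 and pcbp3 the fish of each group lie close together and apart from the other group, for olfm2b and fkbp5 the spread within a group is wide, and for psen2 the groups overlap.

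Genes of the circadian clock changed in both directions. The clock runs on feedback loops in which Clock and Bmal proteins activate period, cryptochrome and Rev-erb genes, whose products in turn repress them. Of 47 tested genes, 8 were higher and 14 lower in Hom (17% and 29.8%, beside 9.34% and 11.0% of all genes), with a median logFC of −0.10. Without WT 79 and 86, 4 were higher and 7 lower, where 63 and 86 of all 16021 genes were called.

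per1a, a repressor of the loop, had 248, 239, 206 and 206 CPM in WT and 96.4, 94.1, 109 and 122 CPM in Hom (logFC −1.09, SE 0.12, FDR = 0.000961). per1b had 773, 708, 701 and 696 CPM in WT and 434, 402, 377 and 452 CPM in Hom (logFC −0.79, SE 0.10, FDR = 0.00243). nr1d1, which encodes the repressor Rev-erbα, had 405, 408, 227 and 268 CPM in WT and 142, 131, 115 and 116 CPM in Hom (logFC −1.38, SE 0.18, FDR = 0.00243). Groups did not overlap for these genes, and WT 88 and 95 were the WT fish nearer to Hom for per1a and nr1d1.

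Additional clock genes were picked after their values were seen, to show members on both sides of the loop. The repressor gene bhlhe41 was lower (380 ± 37.1 to 220 ± 14.7 CPM, SD, n = 4; logFC −0.79), whereas the activator gene BMAL1 on chromosome 25 (15 ± 2.04 to 23.8 ± 2.25 CPM; logFC 0.66) and the repressor gene nr1d2a (82 ± 4.31 to 153 ± 28.4 CPM; logFC 0.90) were higher. Each of per1a, per1b, nr1d1, bhlhe41, BMAL1 and nr1d2a kept an FDR below 0.05 without WT 79 and 86. Expression of these genes cycles over the day, and since the labels give no time of brain removal, its part in these values was not tested.

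Immediate early genes, which neurons switch on within minutes of activity, were called in 1 direction. Of 45 tested, 13 were higher in Hom (28.9%, beside 9.34% of all genes) and 0 lower (beside 11.0%). The median logFC was 0.25, and 6 were higher without WT 79 and 86, where 0.393% of all genes were called higher. bdnf, a neurotrophin, had 26, 20.2, 29.3 and 25.4 CPM in WT and 48.2, 39.1, 43.3 and 45 CPM in Hom (logFC 0.80, SE 0.12, FDR = 0.00329). The kinase genes plk2b and pim3 rose by 0.95 and 0.77, again with no overlap between groups. egr1, named after its values were seen because it is a widely used marker of neuronal activity, was not called (472 ± 29.8 CPM in WT, 390 ± 47.6 in Hom, SD, n = 4; logFC −0.27, FDR = 0.158). Each Hom fish was nonetheless below each WT fish, with 438 CPM in Hom 78 and 442 in WT 79 the nearest.

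Genes that respond to glucocorticoids, the steroid hormones released in stress, were called more often higher than lower. Of 23 tested, 8 were higher (34.8%, beside 9.34% of all genes) and 3 lower (13%, beside 11.0%), with a median of 0.23. The lower genes include per1a, also counted as a clock gene, and 2 were called in each direction without the WT pair. fkbp5, a co-chaperone of the glucocorticoid receptor that was chosen after its values were seen, had 87.3, 150, 25.4 and 40 CPM in WT 79, 86, 88 and 95 and 169, 207, 410 and 392 CPM in Hom 78, 82, 83 and 85. WT 86 came near the lowest Hom fish but the groups did not overlap (logFC 1.96, SE 0.48, FDR = 0.015). tsc22d3, a glucocorticoid-induced leucine zipper gene, had 96.9, 70.8, 66.6 and 84.8 CPM in WT and 119, 138, 144 and 133 CPM in Hom (logFC 0.74, FDR = 0.0056). glulb, a glutamine synthetase gene of glia, rose by 0.91, and glcci1a, a glucocorticoid-induced transcript in mammals, fell by 0.83 (SE 0.10, FDR = 0.00207).

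Genes of the heat shock and unfolded protein responses gave 7 higher and 2 lower of 42 (16.7% and 4.76%, beside 9.34% and 11.0% of all genes). The median logFC was nevertheless −0.07. The pseudokinase gene trib3, a target of the integrated stress response, rose from 4.39 ± 0.332 to 8.85 ± 1.08 CPM (SD, n = 4; logFC 1.01), the Hsp40 co-chaperone gene dnajb1b rose by 1.26 and the endoplasmic reticulum chaperone gene sdf2l1 by 0.59. The heat shock transcription factor gene hsf2 fell by 0.80. Without WT 79 and 86 no gene of the list passed FDR below 0.05, and the FDR of these 4 was 0.0642 to 0.105.

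**Figure D4:**
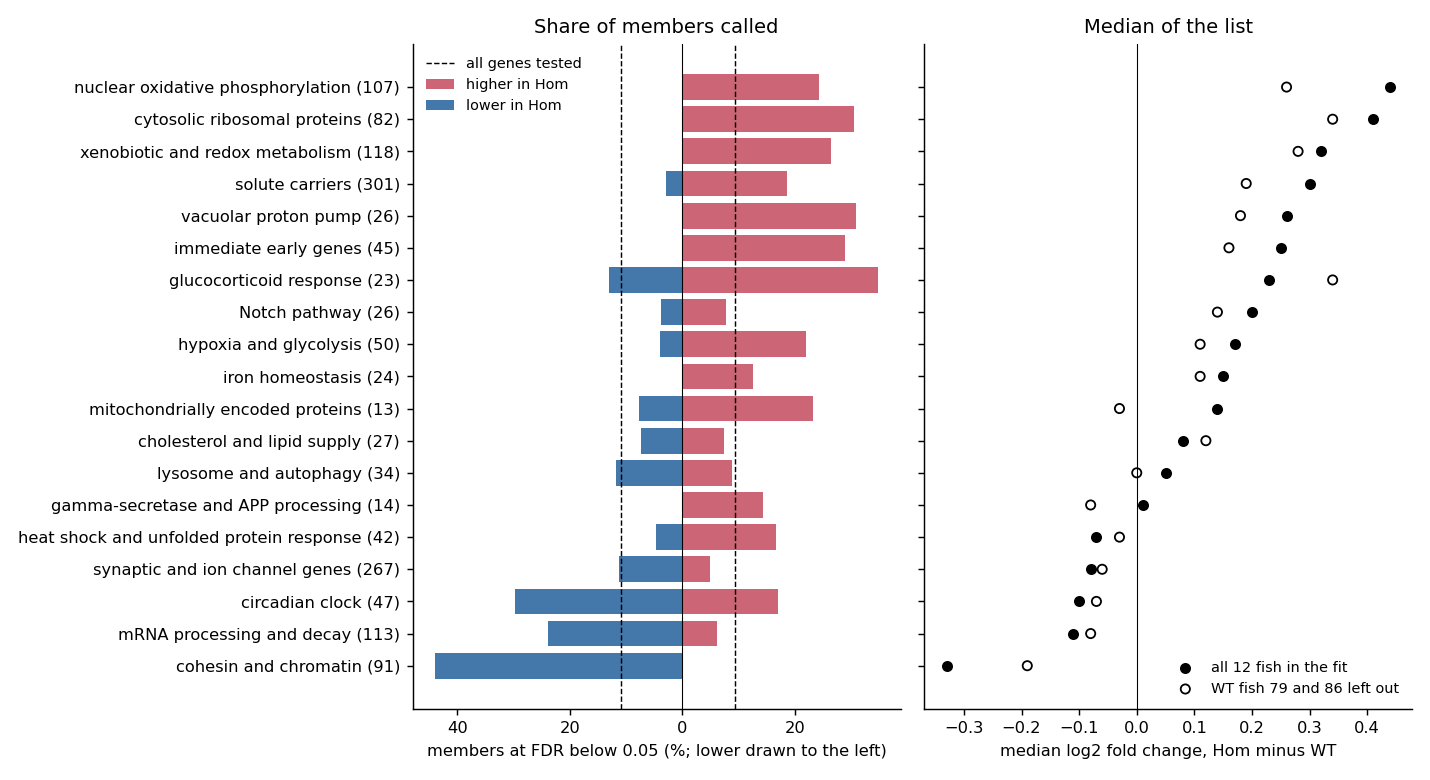
For each gene list, the percent of tested members called higher or lower in Hom at FDR below 0.05, with dashed lines at the shares over all tested genes (9.34% and 11.0%), and the median log2 fold change of the list with all fish and without WT 79 and 86. Chromatin genes were called lower and genes of the proton pump, ribosome, oxidative phosphorylation and redox metabolism higher, and most list medians lie nearer to 0 without the WT pair.

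Nuclear genes of oxidative phosphorylation have products that form the respiratory chain and ATP synthase. They were called higher in 26 of 107 cases (24.3%) and lower in 0, beside 9.34% and 11.0% of all genes (median 0.44). Without WT 79 and 86 none was called and the median was 0.26, and with the length correction 18 were higher and 5 lower at a median of 0.31. NDUFA1, a subunit of complex I, had 23.1, 20.6, 35.9 and 25.5 CPM in WT 79, 86, 88 and 95 and 38.3, 46.4, 61.8 and 48.9 CPM in Hom (logFC 0.89, SE 0.17, FDR = 0.00685; 0.0952 without the pair). WT 88 was the WT fish nearest to Hom. The complex II gene sdhc rose by 1.07, the complex I gene ndufs3 by 0.75 and the cytochrome c gene cycsb by 0.72.

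Of the 13 proteins encoded by mitochondrial DNA, 3 genes were higher (23.1%) and 1 lower (7.69%), beside 9.34% and 11.0% of all genes. The list's median of 0.14 turned to −0.03 without WT 79 and 86. mt-atp8, a subunit of ATP synthase with 165 bp of exon, had 29.8, 20.6, 256 and 136 CPM in WT 79, 86, 88 and 95 and 658, 457, 506 and 441 CPM in Hom. The WT fish differed among themselves by more than 10-fold (logFC 2.22, SE 0.58, FDR = 0.0198). Their order was that of their rRNA shares, but the Hom fish did not follow such an order. Hom 83, with the highest share, had 506 CPM and Hom 78 had 658 CPM. A part of the rRNA share in these values was not tested. MT-ND3 and MT-CO2, subunits of complexes I and IV, rose by 1.04 and 0.68, and mt-nd4l of complex I fell by 0.71. Without the WT pair mt-atp8 kept its call (FDR = 0.0333) and MT-ND3, MT-CO2 and mt-nd4l lost theirs (0.266, 0.316 and 0.142). With the length correction MT-ND3 (0.58, FDR = 0.0528) and MT-CO2 (0.49, FDR = 0.0986) were not called, and mt-nd4l, a gene of 297 bp, stood at −1.34 (FDR = 0.00605).

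Cytosolic ribosomal proteins were higher in 25 of 82 cases (30.5%) and lower in 0, beside 9.34% and 11.0% of all genes (median 0.41). None was called without WT 79 and 86 (median 0.34), and 21 were higher with the length correction (median 0.29). rpl29 had 40.4, 38.6, 60.5 and 48.8 CPM in WT and 77.4, 82.7, 118 and 101 CPM in Hom (logFC 1.01, SE 0.18, FDR = 0.00566), and rpl34 and rps7 rose by 0.86 and 0.60. The list had a median of 1206.5 bp of exon, beside 2642 bp over all tested genes, and logFC fell with exonic length over all tested genes. The median logFC was 0.32 for genes under 500 bp, 0.15 from 500 to 1000 bp, 0.08 from 1000 to 2000 bp, 0.02 from 2000 to 4000 bp and −0.03 above 4000 bp. The share called higher went from 14% in the shortest class to 6.46% in the longest, and the share called lower from 4.68% to 14.4%.

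The vacuolar proton pump, which acidifies lysosomes and synaptic vesicles, had 8 of 26 genes higher (30.8%) and 0 lower. Over all genes 9.34% were higher and 11.0% lower. The list's median was 0.26, and none was called without WT 79 and 86 (median 0.18), where 0.393% of all genes were called higher. atp6ap2, an accessory subunit, had 54.1, 49.6, 66.5 and 54.5 CPM in WT and 86.1, 84.2, 89.5 and 98.1 CPM in Hom (logFC 0.67, SE 0.13, FDR = 0.00634; 0.0887 without the pair). The subunit genes atp6v1b2, atp6v0d1 and ATP6V1C1 (on chromosome 19) rose by 0.54, 0.56 and 0.36.

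Other lysosomal and autophagy genes went both ways, with 3 higher and 4 lower of 34 (8.82% and 11.8%), close to the shares over all genes, and 0 without the WT pair. lamp2, a lysosomal membrane protein, had 319, 516, 156 and 221 CPM in WT 79, 86, 88 and 95 and 125, 125, 105 and 131 CPM in Hom. The Hom fish were tightly grouped below a WT group that itself spanned more than 3-fold (logFC −1.32, SE 0.28, FDR = 0.00929; −0.64 and 0.0884 without the pair). lamp1a fell by 1.22 and tfe3a, a transcription factor of lysosomal genes, by 0.67, whereas ctsd, the aspartyl protease cathepsin D, rose by 0.47.

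Notch pathway genes, which include substrates and targets of γ-secretase cleavage, gave 2 higher and 1 lower of 26 (7.69% and 3.85%), both below the shares over all genes, and 1 higher and 0 lower without the WT pair. The ligand gene dlb had 3.67, 2.4, 1.92 and 1.64 CPM in WT and 3.7, 5.06, 5.03 and 5.56 CPM in Hom, with WT 79 and Hom 78 nearly equal (logFC 1.01, SE 0.24, FDR = 0.0143). The Hes-family gene hes6 rose by 0.82, and MAML3, a coactivator of Notch-dependent transcription, fell by 0.67 (FDR = 0.00427). None of the 4 Notch receptor genes tested passed FDR below 0.05.

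Genes of iron homeostasis had a median of 0.15, and 0 were called without the WT pair. With all fish 0 were lower, beside 11.0% of all genes, and 3 of 24 were higher (12.5%), near the share of 9.34% over all genes. These were SLC40A1, the iron exporter ferroportin (35 ± 5.33 to 55.5 ± 9.07 CPM, SD, n = 4; logFC 0.66), tfr1b, a transferrin receptor gene (45.6 ± 8.87 to 83.9 ± 20.7 CPM; logFC 0.88), and HMOX2, a haem oxygenase gene (logFC 0.62). Genes of hypoxia and glycolysis were higher in 11 and lower in 2 of 50 cases (22% and 4%, beside 9.34% and 11.0% of all genes). Without the WT pair they were higher in 2 and lower in 0. PDK2 on chromosome 12, a kinase that inhibits pyruvate dehydrogenase, had 29.7, 37.5, 39.6 and 36.7 CPM in WT and 71.3, 65.6, 76.6 and 73.4 CPM in Hom (logFC 1.00, SE 0.13, FDR = 0.00243; 0.0318 without WT 79 and 86). EPAS1 on chromosome 13, a hypoxia-inducible factor, and the glycolytic gene pgam1a rose by 0.57 and 0.50, and bnip3la, a mitophagy receptor gene, fell by 0.71, but these lost their calls without the pair (FDR = 0.0832, 0.165 and 0.115).

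Cholesterol and lipid supply gave 2 higher and 2 lower of 27 genes, 7.41% in each direction and below the shares of 9.34% and 11.0% over all genes, and 0 without the WT pair. The transcription factor genes SREBF1 and srebf2, which drive lipid and sterol synthesis, fell by 1.29 and 0.98, while the desaturase gene scdb and the isoprenoid gene IDI1 rose by 0.59 and 0.78. SREBF1 had 155, 205, 74.5 and 127 CPM in WT 79, 86, 88 and 95 and 60, 51, 51.4 and 66.9 CPM in Hom. WT 86 was the highest and WT 88 the nearest to Hom, and the FDR was 0.00774 with all fish and 0.108 without WT 79 and 86.

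Xenobiotic and redox metabolism had 31 of 118 genes higher (26.3%) and 0 lower, beside 9.34% and 11.0% of all genes. The median was 0.32, and 3 were higher without the WT pair. txnipa, an inhibitor of thioredoxin, had 22.9, 21.8, 20.9 and 21.2 CPM in WT and 46.9, 45.9, 58.2 and 41.3 CPM in Hom. The WT fish were close together and every Hom fish was well above them (logFC 1.15, SE 0.14, FDR = 0.00184; 1.19 without the pair). TXN, which encodes thioredoxin itself, rose from 20 ± 4.2 to 44 ± 6.67 CPM and the selenoprotein gene selenow1 from 15.3 ± 4.55 to 35.1 ± 3.48 CPM (SD, n = 4).

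Solute carriers were higher in 56 and lower in 9 of 301 cases (18.6% and 2.99%, beside 9.34% and 11.0% of all genes). The median was 0.30, and 5 were higher and 0 lower without WT 79 and 86. slc7a3a, a transporter of cationic amino acids, had 58.9, 43.6, 50.6 and 62.4 CPM in WT and 125, 100, 83.5 and 109 CPM in Hom (logFC 0.96, SE 0.17, FDR = 0.00523). The neutral amino acid transporter gene slc1a4 rose by 0.72, the folate carrier gene slc19a1 by 1.03 and slc6a22.1 by 0.97.

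Chromatin genes had a higher share of lower calls than any other list described, except that of cerebellar granule cell genes (9 of 11 lower). Of 91 genes of cohesin and chromatin, 40 were lower (44%) and 0 higher, beside 11.0% and 9.34% of all genes. The median was −0.33, and 2 were lower without WT 79 and 86 (median −0.19). kdm4aa, a histone demethylase gene, had 274, 378, 161 and 221 CPM in WT 79, 86, 88 and 95 and 108, 105, 99.6 and 105 CPM in Hom. The Hom fish agreed within 10% of each other while the WT fish spanned more than 2-fold (logFC −1.31, SE 0.19, FDR = 0.00329; −0.88 and 0.0157 without the pair). The cohesin core genes smc3 and smc1a fell by 0.63 and 0.56 and CHD7, a chromatin remodeller gene, by 0.72.

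mRNA processing and decay had 27 of 113 genes lower (23.9%) and 7 higher (6.19%), beside 11.0% and 9.34% of all genes (median −0.11). Without the WT pair 4 were lower and 0 higher, beside 0.537% and 0.393% of all genes in that fit, at a median of −0.08. rbfox3a, a neuronal splicing factor gene, had 287, 255, 231 and 229 CPM in WT and 105, 145, 164 and 126 CPM in Hom (logFC −0.89, SE 0.13, FDR = 0.00329). SMG6, an endonuclease of nonsense-mediated decay, fell by 0.59 and the splicing gene prpf38b by 1.27. Each of rbfox3a, SMG6 and prpf38b kept an FDR below 0.05 without WT 79 and 86, and spen, an RNA-binding corepressor gene (−0.60), did not.

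Synaptic and ion channel genes were lower in 30 and higher in 13 of 267 cases (11.2% and 4.87%), at a median of −0.08, so that the share lower was near that over all genes, and without the WT pair 2 were lower and 1 higher. SYT6 on chromosome 23, a synaptotagmin gene, had 36.3, 32.6, 35.4 and 35 CPM in WT and 15.6, 19.1, 24.6 and 20.1 CPM in Hom (logFC −0.81, SE 0.14, FDR = 0.00494). nrxn3a, a presynaptic adhesion protein gene, fell by 0.63 and syt11b by 0.60.

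Markers of brain cell types were present in these libraries, and no marker of neurons, glia, microglia or endothelium was at 0 counts in all 8 fish. Of 15 neuronal markers 4 were lower (26.7%, beside 11.0% of all genes) and 0 higher at a median of −0.18. Without the WT pair 1 was lower, rbfox3a (FDR = 0.0406), at a median of −0.04. Among the 4 were also elavl4, an RNA-binding protein gene (1043 ± 135 to 732 ± 71.2 CPM, SD, n = 4; logFC −0.51), and SNAP25 on chromosome 17, a protein of synaptic vesicle fusion (logFC −0.36). Both elavl4 and this SNAP25 gene lost their calls without the pair (FDR = 0.101 and 0.216). The more abundant duplicate of SNAP25 was not called (mean 2131 CPM in WT and 2348 in Hom, logFC 0.14, FDR = 0.622). The summed CPM of the neuronal list was 7762 to 9859 in WT and 6709 to 8526 in Hom and overlapped between groups. Bulk tissue cannot tell fewer cells of a type from less RNA per cell. The 6 GABAergic markers gave 1 lower (16.7%, beside 11.0% of all genes) and 0 higher at a median of 0.19. Without the WT pair 0 of them were called. Of 4 glutamatergic markers, all vesicular glutamate transporter genes, SLC17A7 on chromosome 3 fell by 1.22 (FDR = 0.0953 without the WT pair), while the remaining 3 were not called, at 0.47, 0.25 and 0.06.

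Glial markers went in both directions. Of 15 radial glia markers 4 were higher (26.7%) and 2 lower (13.3%) at a median of 0.45, beside 9.34% and 11.0% of all genes. Without the WT pair 0 were called, at a median of 0.26. Among the 4 higher, glulb, S100B and GLUL rose by 0.91, 0.81 and 0.45. The duplicates of SOX9 on chromosomes 3 and 12 fell by 0.75 and 0.57. Of 15 markers of the oligodendrocyte lineage 2 were higher (13.3%) and 0 lower, with 0 called without the WT pair, among them cldnk, a claudin gene of myelinating cells, which rose by 0.66. No marker of microglia and macrophages (16 tested) or of endothelium and mural cells (15 tested) was called. apoeb and cd74a of the former had logFC values of 0.23 and 0.52 at FDR = 0.323 and 0.113, and SLC2A1 on chromosome 23 of the latter had 0.40 at FDR = 0.0517.

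Markers of tissues next to the brain were present at levels that varied by fish. The summed CPM of 17 retina and pineal genes ranged from 17.1 to 247 in WT and from 34.8 to 427 in Hom with no gene called. All 17 nonetheless had a positive logFC, beside 8410 of all 16021 genes, at a median of 1.41. That median was 4.35 without WT 79 and 86, with 17 positive, and 0.81 without WT 88 and 95, with 12 positive. Erythrocyte markers had 1 of 5 called, the carbonic anhydrase gene cahz (logFC 0.48), and those of meninges, skin and muscle 1 of 14, the keratin gene krt18a.1 (logFC 0.80). Over all genes 20.3% were called. None of the 4 pituitary markers tested was called. The part of these tissues in the other results was not tested.

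The share of genes called was higher near psen2 than on other chromosomes, a difference given here without a test. Hom and WT siblings differ by descent not only in the mutation but also in the stretch of chromosome 1 around it. Of 267 tested genes within 10 Mb of psen2, 11 were DE (4.12%) and 82 had FDR below 0.05 (30.7%), against 165 (1.08%) and 3081 (20.1%) of 15331 genes on other chromosomes. Without WT 79 and 86 the shares at FDR below 0.05 were 3.00% (8 genes) and 0.913% (140 genes). The share at FDR below 0.05 was 30.8% within 5 Mb, 30.6% at 5 to 10 Mb, 26.7% at 10 to 20 Mb and 21.3% farther away on chromosome 1.

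cbr1, described above, lies 3.89 Mb from psen2, and cryzl1, a quinone oxidoreductase-like gene 3.96 Mb away, had 7.43, 5.66, 9.23 and 9.49 CPM in WT and 16.9, 17.4, 21.1 and 16.1 CPM in Hom (logFC 1.17, SE 0.18, FDR = 0.00351). The splicing gene smu1b had 90.5, 117, 122 and 126 CPM in WT and 44.5, 49, 59.3 and 66.4 CPM in Hom (logFC −1.06, SE 0.16, FDR = 0.00417), and vps37c, a gene of the ESCRT-I sorting complex, fell by 0.55. STN1 and il15, named after their values were seen, rose by 1.17 and 1.12. Of the genes described above, si:dkey-22n8.3, dnajb1b and olfm2b also lie within 10 Mb, at 4.07, 4.69 and 8.19 Mb. An effect of the mutation on these neighbours and a difference carried by the linked haplotype cannot be told apart here.

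**Figure D5:**
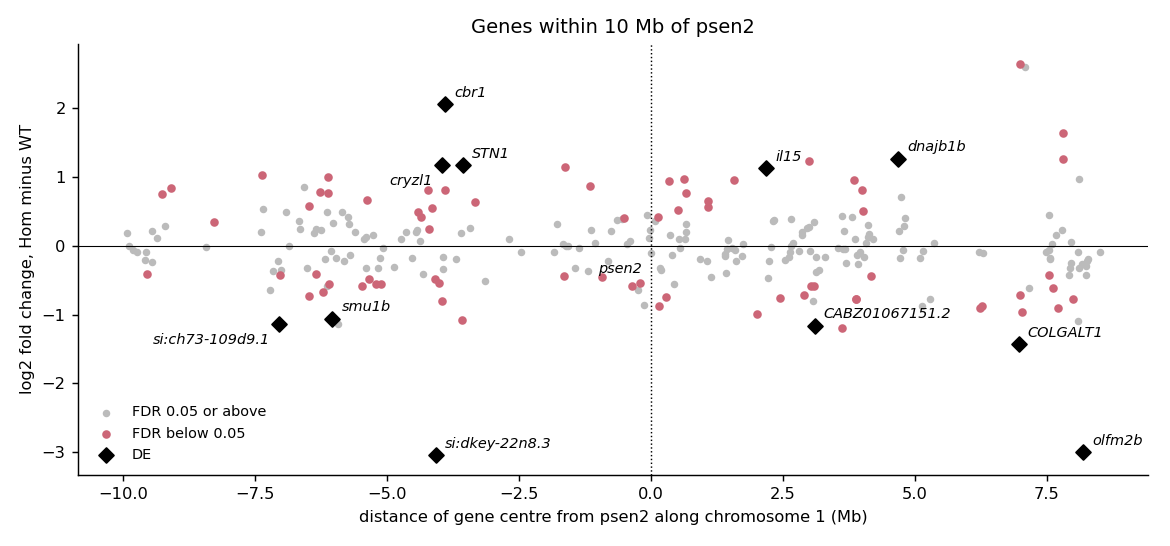
Log2 fold change, Hom minus WT, of tested genes within 10 Mb of psen2 on chromosome 1, against distance from psen2 in Mb, with genes at FDR below 0.05 coloured and DE genes drawn as named diamonds. The 11 DE genes lie on both sides of 0, and cbr1 at 2.05 is the highest of them.

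The contrast between the mutant genotypes, Hom minus Het, had 0 genes at FDR below 0.05 in edgeR's test (smallest FDR 0.516). Of 16021 genes, 607 had an unadjusted p below 0.05, fewer than that threshold would give with no difference at all. Side by side with the same WT fish, which both contrasts share, cipca fell by 1.35 in Hom and by 0.96 in Het, per1a by 1.09 and 0.85, and pcbp3 by 1.13 and 1.05. nr4a1 rose by 1.84 and 2.09, cbr1 by 2.05 and 1.94, and nocta by 2.11 and 2.04. The absence of calls between Hom and Het does not show that they were alike.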

How the data were processed

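Genes were counted by the authors and deposited as raw counts of fragments per gene and fish, with an exonic length and a position for each gene. Per the labels and the file headers, reads (ribosomal RNA depleted with probes of mammalian sequence, paired ends, no molecular identifiers) were trimmed with cutadapt 1.14, aligned to GRCz11 with STAR 2.7.0d and counted with featureCounts of Subread 1.5.2, keeping unique alignments on the reverse strand that lie within exons at a mapping quality of 10 or more. Near-identical duplicates can lose reads by this rule. The adjustment for GC and gene length in the study's methods came after this stage, and the deposited counts are without it.

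Genes above 1.5 CPM in at least 4 of 12 fish were fitted with edgeR 4.0.16 (R 4.3.3) on TMM-scaled counts in a model of 3 genotypes, tested by quasi-likelihood for Hom minus WT, and adjusted by Benjamini-Hochberg and Bonferroni over all 16021 genes. Values with 1 number per fish were tested by exact permutation, two-sided. Library totals ran from 11878943 to 16667945 counts, and intervals (Wilson, 95%) and the floor of 3 counts cover counting error only. The fish are separate animals of 1 family. The p-values of edgeR set the Hom minus WT difference against the spread between fish within genotypes, estimated from all 12 fish.

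Of the 32057 genes, 28988 were paired with a symbol in the reference name table. Some symbols meant for the lists found no match and were left out. Among them were ncstn (nicastrin), dla and her6 of the Notch pathway, and vegfaa of the hypoxia list. Genes were named by rank: the largest changes among DE genes without overlap between groups, the smallest p, the smallest p within each list and near psen2, and the most abundant DE genes; exceptions are stated. The groups compared, the genes named and the lists were chosen with earlier results of these data known. Alternatives were other scalings and filters, DESeq2 1.42.0, a likelihood-ratio test, a fit of the 8 fish, a correction for length, the rRNA share as covariate, and leaving out fish. No sequences are shown, and some named genes are not reported here.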

Additional observations from a re-analysis of the deposited data

Results flagged for a closer look

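Of 248 groups of 4 fish examined, over the genes printed here and the measures per fish, 11 (4.44%) had 1 fish far from the other 3, where chance gives about 5%. In WT, cipca was highest in fish 86 at 59.2 CPM (55.2 to 55.5 in the others). cbr1 was highest in WT 79 at 15.8 CPM, with 9.38 to 10.1 in the others. WT 88 had 2.44 CPM of jagn1a against 0.917 to 1.09, and Hom 85 had 4.77 against 5.8 to 5.94. pik3r3a was highest in WT 86 at 15.9 CPM (8.27 to 9.49), and per1b in WT 79 at 773 CPM (696 to 708). WT 86 was lowest in bhlhe41 at 324 CPM (396 to 401). Hom 83 was lowest in bnip3la at 54.1 CPM (60 to 61) and highest in atp6v1b2 at 245 CPM (204 to 209). Hom 78 was lowest in syt11b at 76.5 CPM (85.6 to 87.2). SLC17A7 on chromosome 3 was highest in WT 79 at 267 CPM, with 172 to 176 in the others.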

How the results depend on the processing

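The 178 DE genes became 17 in a fit of the 8 fish alone, 530 with DESeq2, 454 with the likelihood-ratio test and 0 with the mitochondrial rRNA share as covariate (1146 of 16021 genes at an unadjusted p below 0.05 in that fit). They became 4 without WT 79 and 86, 844 without WT 88 and 95, 613 without the 3 fish low in forebrain genes (WT 88, WT 95 and Hom 83) and 347 without the 2 fish low in Hox genes (WT 88 and Hom 78), and 11 to 422 when 1 fish was left out. These 4 omissions of 2 or 3 fish together were chosen after seeing the data. The 3258 genes at FDR below 0.05 became 0 with the rRNA share as covariate, 149 without WT 79 and 86, and 1492 to 4126 when 1 fish was left out, and stayed within 1.5 times under the remaining alternatives. On the 500 most variable genes the first component no longer separated the groups (exact permutation test, p = 0.171).

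The rRNA share did not overlap between groups, so the fit with it as covariate estimates little of the genotype contrast and no named gene was called in it. In it the logFC turned to −0.02 for MFN2, 0.21 for gata4, 0.48 for snrnp35, 0.07 for egr1, 0.06 for bnip3la, −0.07 for sdhc, −0.72 for mt-atp8, −0.07 for MT-CO2, −0.16 for atp6v1b2, −0.03 for atp6v0d1, 0.53 for lamp2, 0.48 for lamp1a, −0.23 for HMOX2, 0.16 for SREBF1, −0.05 for scdb, 0.84 for srebf2, 0.28 for SOX9 on chromosome 12 and −0.11 for SLC2A1 on chromosome 23. The causes were not tested. Of 112 named genes called with all fish, 40 kept their call without WT 79 and 86, 109 in the fit of 8 fish and 97 to 110 when 1 fish was left out.

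No paired analysis was possible because each fish number occurs in 1 genotype only, so the groups share no replicate number. With 4 fish a group an exact permutation test cannot go below p = 0.0286, and 3 counts correspond to 0.233 to 0.306 CPM, which limits what can be said of the rarest transcripts.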

Other observations

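Further regional genes, chosen after their values were seen, varied between fish of 1 genotype. oxt, which encodes the oxytocin-like hormone of preoptic neurons, had 35, 22.7, 3.14 and 0.777 CPM in WT and 38.5, 30.7, 30.6 and 33.8 CPM in Hom, so that WT 88 and 95 stood apart from the other 6 fish and the genotypes did not differ by the test (logFC 1.12, FDR = 0.362). The cone arrestin gene ARR3 on chromosome 10 had 32.9, 12, 0.436 and 3.02 CPM in WT and 47.7, 40.6, 63.8 and 4.34 CPM in Hom. Neither oxt nor ARR3 was called.

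Other cerebellar genes were called in some cases and not in others. en1b, a homeobox gene of the midbrain-hindbrain boundary, had 38.2, 42.7, 38.5 and 35 CPM in WT and 8.95, 11.8, 25.7 and 21.7 CPM in Hom (logFC −1.18, SE 0.28, FDR = 0.0131). pvalb7, a parvalbumin gene of Purkinje cells, fell by 0.73, and without WT 79 and 86 neither en1b nor pvalb7 was called (FDR = 0.123 and 0.129). CA8, the other Purkinje cell gene examined, was not called (logFC −0.24, FDR = 0.627), and CBLN1, a synaptic organiser gene of granule cells in mammals, had 108 ± 4.65 CPM in WT and 85.5 ± 12.1 CPM in Hom (SD, n = 4) and was not called (logFC −0.34, FDR = 0.202).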
